A study of Mus musculus with 4 samples.

Results

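The 284 CD4 T cells of the PT-Cy library were divided by the RNA of Il7r, the gene of the IL-7 receptor alpha chain (CD127). The 144 Il7r-positive cells held at least 1 Il7r UMI (unique molecular identifier, 1 counted RNA molecule) and the 140 Il7r-negative cells held none. These 284 cells were among 3587 cells of the whole series, of which 1210 were CD4 cells with RNA counts. The sides were chosen by the Il7r counts themselves, which are therefore given only as a description and were left out of every total and comparison.

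The cells came from bone marrow of B6 mice. Each had been given a C3H.SW graft of 5000000 marrow cells, to which 500000 CD4 and 500000 CD8 T cells of the same donor strain were added. In the PT-Cy group the recipients also received cyclophosphamide at 50 mg/kg on days 3 and 4 after transplantation. The alloBMT group received the same graft without the drug. T cells were sorted from marrow on day 14, 4 mice were pooled in each group, and the cells were profiled with 10x Multiome, which reads RNA and open chromatin (ATAC) from the same barcode. Each group was thus 1 library of each kind, cells are not replicates, and no test was made. The intervals below are exact 95% intervals (conditional binomial for ratios, Poisson for levels, binomial for shares) and cover counting error only. The labels do not say which cells were donor-derived.

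IL-7 is a cytokine made mainly by stromal cells of marrow and lymphoid organs. Its receptor pairs CD127 with the common gamma chain and signals through JAK1, JAK3 and STAT5 to keep resting T cells alive, in part through Bcl2. Naive and memory T cells carry CD127, strongly stimulated effector T cells lose it, and regulatory T cells usually carry little of it.

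The start of Il7r, on the minus strand of chromosome 15 (GRCm38.p6, gene at chr15:9506159-9529941), is shown because its accessibility is compared below. The window chr15:9529827-9530126 runs from 250 bases before to 50 bases after the RefSeq start site, and 192 of its 300 bases lay in an accessible peak of the deposited table. The start site used lies inside the gene span given above, not at its end, so both motifs named next also lie within that span. Capitals mark an ETS motif (AGGAAGT, found on the opposite strand, 49 bases before the start site) and a RUNX motif (TGTGGT, 3 bases past it).
Il7r promoter: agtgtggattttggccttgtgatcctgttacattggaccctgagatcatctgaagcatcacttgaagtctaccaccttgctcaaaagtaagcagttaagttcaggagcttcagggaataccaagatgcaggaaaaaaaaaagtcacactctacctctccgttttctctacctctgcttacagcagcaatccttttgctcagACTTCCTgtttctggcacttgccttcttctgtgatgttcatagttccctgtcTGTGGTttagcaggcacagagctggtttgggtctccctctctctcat
Both strands were searched, and the motifs were picked after the sequence was seen. Of all 32851 RefSeq promoter windows of this length, 9.35% held the ETS motif and 16.8% the RUNX motif.

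Median sequencing depth differed little between the sides, whereas mean depth was higher in Il7r-positive cells (4814 UMIs, against 4078 UMIs in Il7r-negative cells). The median was 3996.5 UMIs in Il7r-positive and 3770.5 UMIs in Il7r-negative cells, and the deepest cell held 20203 and 9487 UMIs. Without Il7r the sides summed to 692782 and 570934 UMIs. Median ATAC counts per cell were 4195 and 4060.5, and mitochondrial RNA made up a median of 4.63% and 4.79% of UMIs. Every one of the 1210 cells held a Cd4 UMI and none held a Cd8a UMI, but Cd8b1, the CD8 beta chain, was found in 40 Il7r-positive and 51 Il7r-negative PT-Cy cells. No barcode was shared between the PT-Cy and alloBMT CD4 cells.

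The Il7r-positive cells held 391 Il7r UMIs in all. Of them 57 cells had 1 UMI, 36 had 2 and 51 had 3 or more, up to 22. The Il7r-positive share was 43.2% of the shallowest tertile of cells (interval 33.0 to 53.7%). It was 54.3% of the middle (43.7 to 64.6%) and 54.7% of the deepest tertile (44.2 to 65.0%). The share was thus lowest in the shallowest cells, but these intervals overlap. In the alloBMT library 75 cells were Il7r-positive and 851 negative. The positive share was 50.7% in PT-Cy (interval 44.7 to 56.7%) and 8.10% in alloBMT (6.42 to 10.0%), and with every cell thinned to 2095 UMIs it was 36.3% of 256 PT-Cy and 6.37% of 785 alloBMT cells. A cell without an Il7r UMI can still carry the receptor.

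RNA was summed over the cells of each side and scaled to CPM, counts per 1000000 UMIs. Among 4856 genes with at least 50 UMIs over both sides, 212 (4.37%) were higher in Il7r-positive cells by 1.5-fold or more, and 181 (3.73%) were lower by that much. Over all of them the median log2 ratio was -0.006. These percentages are the background for the counts of list members below.

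Il7r-positive cells held more RNA of genes that mark memory and naive T cells. Of 27 such genes, 20 reached 50 UMIs, 18 of these had a ratio above 0, 4 were at least 1.5-fold higher (4.37% of all genes were) and none was 1.5-fold lower. Their median log2 ratio was 0.35 (0.32 without the cells that held a Cd8b1 UMI). Tcf7, the gene of TCF-1, the transcription factor that keeps T cells stem-like, had 117 CPM in Il7r-positive and 70.1 CPM in Il7r-negative cells (81 and 40 UMIs; log2 ratio 0.74, interval 0.18 to 1.32). S1pr1, the receptor through which T cells leave tissues, had 88.1 CPM in Il7r-positive and 54.3 CPM in Il7r-negative cells (log2 ratio 0.70, interval 0.05 to 1.37). Il6ra, a chain of the IL-6 receptor that T cells lose on activation, was also past 1.5-fold, at 0.66 on the log2 scale, with an interval from -0.06 to 1.42.

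Slamf6, a surface marker of stem-like T cells, had 261 CPM in Il7r-positive and 175 CPM in Il7r-negative cells (log2 ratio 0.58, interval 0.22 to 0.94). Lef1, a partner of TCF-1, had 296 and 205 CPM (0.53, interval 0.20 to 0.87). These ratios were just under 1.5-fold, with intervals above 0. Foxo1, which drives Il7r and Klf2 in T cells, had a log2 ratio of 0.33 (0.04 to 0.63). Satb1, a chromatin organiser of naive T cells, was at -0.16 (-0.41 to 0.10), and Bach2, which holds back effector genes, at 0.09 (-0.32 to 0.49), so the list did not move as a whole. Left out of the ratios were 7 members with fewer than 50 UMIs, among them Ccr7, found in 6.94% of Il7r-positive and 4.29% of Il7r-negative cells.

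**Figure D1:**
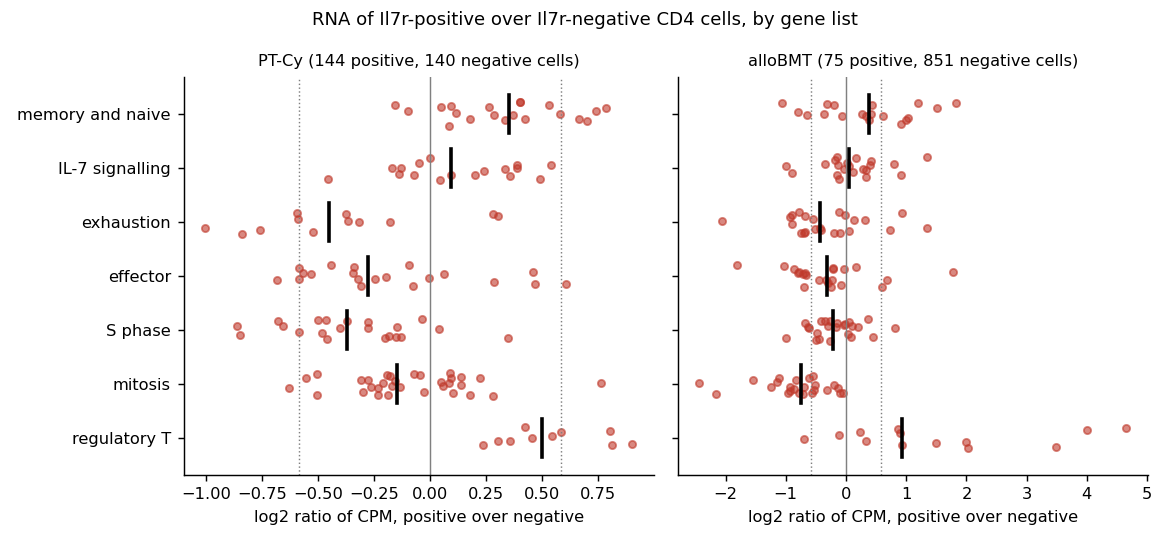
Each dot is 1 gene with at least 50 UMIs, by its log2 ratio of CPM in Il7r-positive over Il7r-negative CD4 cells of the PT-Cy library (left) and the alloBMT library (right). Black bars are list medians and dotted lines mark 1.5-fold. In PT-Cy the memory and naive genes (median 0.35) and regulatory T genes (0.50) sit right of 0, and exhaustion (-0.45), S phase (-0.37) and effector genes (-0.28) sit left of it.

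At 1 depth Tcf7 and Slamf6 were found in a larger share of Il7r-positive cells, whereas Satb1 and Bach2 differed little. Thinning to 2095 UMIs dropped 10 Il7r-positive and 18 Il7r-negative cells that were shallower. Tcf7 was then detected in 24.6% of Il7r-positive cells (interval 17.6 to 32.8%) and 10.7% of Il7r-negative cells (5.80 to 17.5%). Averaged over all possible thinnings these shares were 22% and 11%. Slamf6 was found in 35.8% and 22.1% of cells in 1 thinning and in 35.8% and 26.6% over all thinnings. In that 1 thinning Lef1 was found in 41.8% and 37.7% of cells, with overlapping intervals. Satb1 was found in 40.3% and 39.3%, and Bach2 in 26.9% and 26.2%. Unthinned, Tcf7 was detected in 36.8% and 19.3% of cells. For scale, Hbb-bs, a haemoglobin gene that T cells do not express, was found after thinning in 50.0% of Il7r-positive and 53.3% of Il7r-negative cells, and S100a9, a neutrophil gene, in 10.4% and 7.38%. Both Tcf7 shares lay below that of Hbb-bs. Every cell in the RNA table is a CD4 cell, so no cell type that should lack Tcf7 was at hand to set its background.

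Of the IL-7 receptor's partners, Il2rg, the common gamma chain, had 378 CPM in Il7r-positive and 296 CPM in Il7r-negative cells (log2 ratio 0.35, interval 0.07 to 0.64). Il2rb, the beta chain shared by the IL-2 and IL-15 receptors, had 414 and 553 CPM (-0.42, interval -0.65 to -0.18). The 2 chains thus lay on opposite sides of 0, both under 1.5-fold. Il2ra, the alpha chain of the IL-2 receptor, was at 0.45 (interval -0.004 to 0.92), and Il21r at 0.03 (-0.47 to 0.54).

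Signalling genes downstream of IL-7 did not pass 1.5-fold in either direction. The list held 23 genes, 17 of them measured, of which 10 had ratios above 0 and their median log2 ratio was 0.09. Mcl1, a survival gene of the BCL2 family, had 140 CPM in Il7r-positive and 96.3 CPM in Il7r-negative cells (log2 ratio 0.54, interval 0.05 to 1.04). Stat5b was at 0.39 (0.03 to 0.75) and Cish, a STAT5 target that dampens cytokine signals, at 0.49 (-0.14 to 1.15). Bcl2, the best known survival gene of the pathway, had 652 CPM in Il7r-positive and 611 CPM in Il7r-negative cells (0.09, interval -0.11 to 0.30). Bcl2l11, the gene of the death factor BIM, was at -0.46 (-1.02 to 0.10).

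Exhaustion-related genes were lower in Il7r-positive cells. With 12 of 24 listed genes measured, 5 were at least 1.5-fold lower (3.73% of all genes were), 2 had ratios above 0, and the median log2 ratio was -0.45. The list joins inhibitory receptors and factors of chronically stimulated T cells, many of which are also induced by recent activation. Cd38, an ectoenzyme that consumes NAD, had 37.5 CPM in Il7r-positive and 75.3 CPM in Il7r-negative cells (26 and 43 UMIs; log2 ratio -1.005, interval -1.77 to -0.27). Entpd1, which encodes CD39, an ectoenzyme that breaks down ATP, had 167 and 300 CPM (-0.84, interval -1.19 to -0.49). Pdcd1, the gene of PD-1, had 54.9 CPM in Il7r-positive and 92.8 CPM in Il7r-negative cells (-0.76, interval -1.40 to -0.13). Batf, an AP-1 factor, and Havcr2, the gene of TIM-3, were the other members past 1.5-fold, at -0.60 and -0.59.

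Tox, the transcription factor most closely tied to exhaustion, had 1713 CPM in Il7r-positive and 2223 CPM in Il7r-negative cells (log2 ratio -0.38, interval -0.49 to -0.26). Ctla4 (0.30) and Maf (0.28) were the members above 0. Cd8b1 RNA was also lower in Il7r-positive cells, at 98.2 CPM against 172 CPM in Il7r-negative cells (log2 ratio -0.81, interval -1.27 to -0.35), and Runx3, a factor of CD8 cells and of cytotoxic CD4 cells, was at -0.53 (-0.87 to -0.18). Without the cells that held a Cd8b1 UMI, which left 104 Il7r-positive and 89 Il7r-negative cells, the median of the 9 exhaustion genes still measured was 0.05 and the ratio of Tox was 0.11. There Cd38 stood at -1.06, Entpd1 at -0.58, Pdcd1 at -0.47 and Batf at -0.54. In single depth tertiles, Entpd1 stood at 0.05 and Tox at 0.13 in the shallowest cells, and Batf at 0.65 in the middle ones. The medians of the effector, division and regulatory T lists without these cells stand beside them, and the part of the Cd8b1-bearing cells in the result was not tested.

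Effector genes were mostly lower in Il7r-positive cells, by small amounts. Among 20 measured genes of 25 listed, 3 were at least 1.5-fold lower, 1 was 1.5-fold higher or more, and their median was -0.28 on the log2 scale (-0.28 without the Cd8b1-bearing cells). Tbx21, which encodes T-bet, the factor of type 1 effector cells, had 85.2 CPM in Il7r-positive and 137 CPM in Il7r-negative cells (log2 ratio -0.68, interval -1.20 to -0.18), although it stood at 0.28 in the middle depth tertile. Prf1, the pore-forming protein perforin, had 85.2 and 128 CPM (-0.59, interval -1.11 to -0.07). Eomes, a factor related to T-bet, had 54.9 CPM in Il7r-positive and 82.3 CPM in Il7r-negative cells (-0.59, interval -1.24 to 0.06), and it stood at 0.08 without the Cd8b1-bearing cells.

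Nkg7, a granule protein of cytotoxic cells, had 720 CPM in Il7r-positive and 979 CPM in Il7r-negative cells (log2 ratio -0.44, interval -0.62 to -0.27). Ccl5, a chemokine of effector and memory cells, had 971 and 1151 CPM (-0.24, interval -0.40 to -0.09). Gzmb, the gene of granzyme B, did not differ detectably, with 468 and 448 CPM (0.06, interval -0.18 to 0.30). Klrg1, an inhibitory receptor of terminal effector cells and some regulatory T cells, was the member past 1.5-fold upward, at 0.61 (-0.03 to 1.26), so the effector genes did not move together. In cluster 2 of the deposited clusters alone, which held 117 Il7r-positive and 121 Il7r-negative cells, the effector median was -0.15.

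RNA of proliferation genes was found on both sides. A UMI of at least 1 of Mki67, Top2a, Cenpf, Cdk1 and Ccnb1, was found in 134 of 144 Il7r-positive cells (93.1%) and in 131 of 140 Il7r-negative cells (93.6%). At 2095 UMIs per cell the shares were 86.6% and 86.1% in 1 thinning and 84.1% and 85.7% over all thinnings. These shares are near their ceiling and have no background share of their own, so neither a count of dividing cells nor a difference is read from them. Mki67, the Ki-67 antigen gene, had 728 CPM in Il7r-positive and 830 CPM in Il7r-negative cells (log2 ratio -0.19, interval -0.37 to -0.01). Top2a, which untangles replicated DNA, was likewise at -0.19 (-0.37 to -0.01).

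The mitosis list held 35 genes, 32 of them measured. There 1 gene was past 1.5-fold upward and 1 downward, and the median log2 ratio was -0.15 (-0.27 without the Cd8b1-bearing cells). Aurkb, a mitotic kinase, was the higher one (0.76, interval -0.09 to 1.66) and Depdc1b, a cell cycle regulator, the lower one (-0.63, interval -1.26 to -0.004). S phase genes lay further below 0. Of 35 listed, 21 were measured, with 5 at least 1.5-fold lower and none higher by that much, and the median was -0.37 (-0.21 without the Cd8b1-bearing cells). Rrm2, a subunit of the enzyme that makes deoxynucleotides, had 44.7 CPM in Il7r-positive and 80.6 CPM in Il7r-negative cells (-0.85, interval -1.56 to -0.16). Mcm4, part of the replicative helicase, was at -0.66 (-1.29 to -0.04), and Pcna, the replication clamp, at -0.40 with a lower bound of -0.80 and an upper bound just under 0.

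Genes of regulatory T cells were higher in Il7r-positive cells, each of the 10 measured members of a list of 17 having a ratio above 0. Past 1.5-fold lay 3 of them, and their median was 0.50 on the log2 scale (0.52 without the Cd8b1-bearing cells). Ikzf2, which encodes Helios, had 1937 CPM in Il7r-positive and 1112 CPM in Il7r-negative cells (log2 ratio 0.80, interval 0.66 to 0.94). A single Il7r-positive cell held 120 of its 1342 UMIs on that side, and without it the ratio was 0.71. Nrp1, a surface receptor of thymus-derived regulatory T cells, had 169 and 96.3 CPM (0.81, interval 0.34 to 1.30), though -0.65 in the middle depth tertile, and Capg, an actin-capping protein, had 98.2 and 52.5 CPM (0.90, interval 0.26 to 1.57). Icos, a costimulatory receptor of several activated T cell kinds, stood at 0.58 (0.31 to 0.86). Foxp3, the defining factor of regulatory T cells, stayed under 50 UMIs. It had 31 UMIs in 18 Il7r-positive cells and 13 UMIs in 9 Il7r-negative cells (0.97, interval -0.001 to 2.03). After the thinning described above, Foxp3 was found in 5.97% of Il7r-positive cells (interval 2.61 to 11.4%) and 4.92% of Il7r-negative cells (1.83 to 10.4%). Averaged over all possible thinnings these shares were 6.79% and 4.96%, so at equal depth they lay close together.

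Cluster 4 of the deposited clusters, whose cells carried the highest Il7r-positive share in both libraries, held 21 Il7r-positive and 10 Il7r-negative PT-Cy cells. Outside it, 4 of the 9 regulatory T genes measured were at least 1.5-fold higher (4.42% of all genes were) with a median of 0.54. The memory and naive median outside cluster 4 was 0.30, the exhaustion median -0.45 with 3 of 12 genes at least 1.5-fold lower (3.9% of all genes were), the effector median -0.26 and the mitosis median -0.16. The directions were thus the same without that cluster.

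By the rule of the highest lower bound, the genes furthest above 0 were March3, Ikzf2, Tcf4, Myo3b, Gphn, Arhgef12, Cldnd1, Snhg1, Rassf3, Ttn, Dhx57 and Iigp1. March3, a membrane-bound ubiquitin ligase, had 335 CPM in Il7r-positive and 158 CPM in Il7r-negative cells (log2 ratio 1.09, interval 0.73 to 1.45) and was found in 79 and 42 cells. Tcf4, the gene of E2-2, rested on 1 cell with 32 of its 44 Il7r-positive UMIs, and without that cell its ratio was -0.26. Iigp1, an interferon-induced GTPase, had 150 and 77.1 CPM (0.96, interval 0.44 to 1.51). Snhg1, a long noncoding RNA that hosts small nucleolar RNAs, had 67.8 CPM in Il7r-positive and 26.3 CPM in Il7r-negative cells (1.37, interval 0.50 to 2.31).

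The genes furthest below 0 were Setbp1, Ngp, Lrrk1, Hdac9, St6galnac3, Entpd1, Vps37b, Tmem163, Chn2, Ikzf3, Cd7 and Tnfaip3. Setbp1, which encodes a SET-binding protein, had 205 CPM in Il7r-positive and 433 CPM in Il7r-negative cells (log2 ratio -1.08, interval -1.39 to -0.77). Ikzf3, which encodes Aiolos, an Ikaros family factor like Helios, had 449 and 694 CPM (-0.63, interval -0.85 to -0.41). The 2 Ikaros relatives thus lay on opposite sides of 0. Tnfaip3, the gene of A20, a brake on NF-kB, was at -0.62 (-0.88 to -0.37). Ngp, a neutrophil granule gene, and Hdac9, a histone deacetylase, each rested on 1 Il7r-negative cell, and without that cell their ratios were 0.70 and 0.78. St6galnac3, a sialyltransferase, had 102 of its 714 Il7r-negative UMIs in 1 cell and stood at -0.70 with it and -0.49 without it.

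Cell by cell the sides overlapped for each of the 5 lists plotted. Memory and naive genes made up a median of 0.528% of a cell's UMIs in Il7r-positive and 0.446% in Il7r-negative cells, and 59.7% (interval 51.2 to 67.8%) and 40.0% (31.8 to 48.6%) of cells lay above the median of the library. Effector genes made up a median of 0.390% and 0.491%, with 39.6% of Il7r-positive and 60.7% of Il7r-negative cells above the library median. Regulatory T genes had 59.0% and 40.7% above it, exhaustion genes 46.5% and 53.6%, and mitosis genes 44.4% and 55.7%. Mitosis genes made up a median of 0.305% of UMIs in Il7r-positive and 0.503% in Il7r-negative cells.

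Taking both lists together, 38.2% of Il7r-positive cells (interval 30.2 to 46.7%) and 15.7% of Il7r-negative cells (10.1 to 22.8%) were high for memory and low for effector genes. The opposite state, low for memory and high for effector genes, held 18.1% (12.2 to 25.3%) and 36.4% (28.5 to 45.0%). For memory against mitosis genes, 39.6% of Il7r-positive and 25% of Il7r-negative cells were high for memory and low for mitosis, and 24.3% and 40.7% were low for memory and high for mitosis. High for both memory and mitosis were 20.1% of Il7r-positive and 15% of Il7r-negative cells. Each state thus occurred on both sides. The shares of all lists are taken from the same UMIs of a cell, and the list medians given above are small parts of that total.

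**Figure D2:**
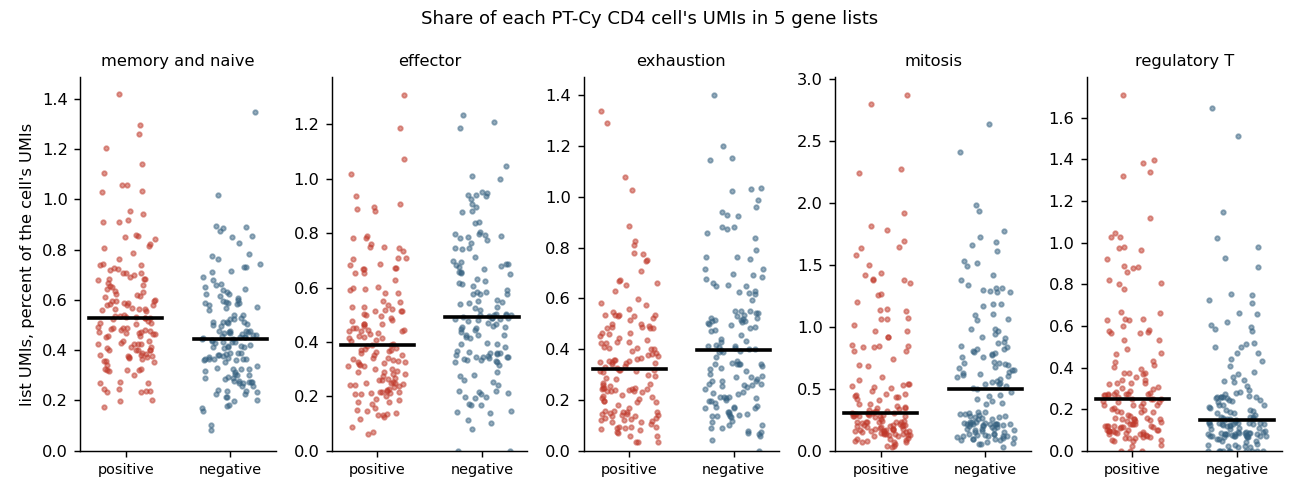
Each dot is 1 PT-Cy CD4 cell, by the percent of its UMIs in a gene list, with Il7r-positive cells left and Il7r-negative cells right in each panel, and black bars for the medians. The clouds overlap in all 5 panels, with medians of 0.528% and 0.446% for memory and naive genes and 0.390% and 0.491% for effector genes.

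The values also differed by the number of Il7r UMIs. In cells with 0, 1, 2 and 3 or more Il7r UMIs, Tcf7 stood at 70.1, 89.7, 122 and 140 CPM. Ikzf2 stood at 1112, 1578, 1707 and 2469 CPM in the same order, and Slamf6 at 175, 192, 269 and 323 CPM. Entpd1 stood at 300, 249, 122 and 124 CPM. For these genes the 57 cells with 1 UMI lay between the cells with none and those with 2. Other members of the same lists did not line up in this way. S1pr1 stood at 54.3, 81.5, 45.7 and 128 CPM, and Cd38 at 75.3, 28.5, 61.0 and 27.9 CPM. Gzma, a granzyme gene, stood at 172, 77.5, 147 and 187 CPM.

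Perforin and T-bet were lowest in the cells with most Il7r. Prf1 stood at 128, 126, 102 and 31.9 CPM and Tbx21 at 137, 114, 107 and 39.9 CPM. Mki67 followed no order, at 830, 701, 889 and 626 CPM, and Satb1 was lowest at 3 or more UMIs, with 436, 502, 478 and 215 CPM. Median depth was 3770.5, 3612, 4914 and 4365 UMIs in these cells, so depth differed between them too, and its part in the result was not tested.

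**Figure D3:**
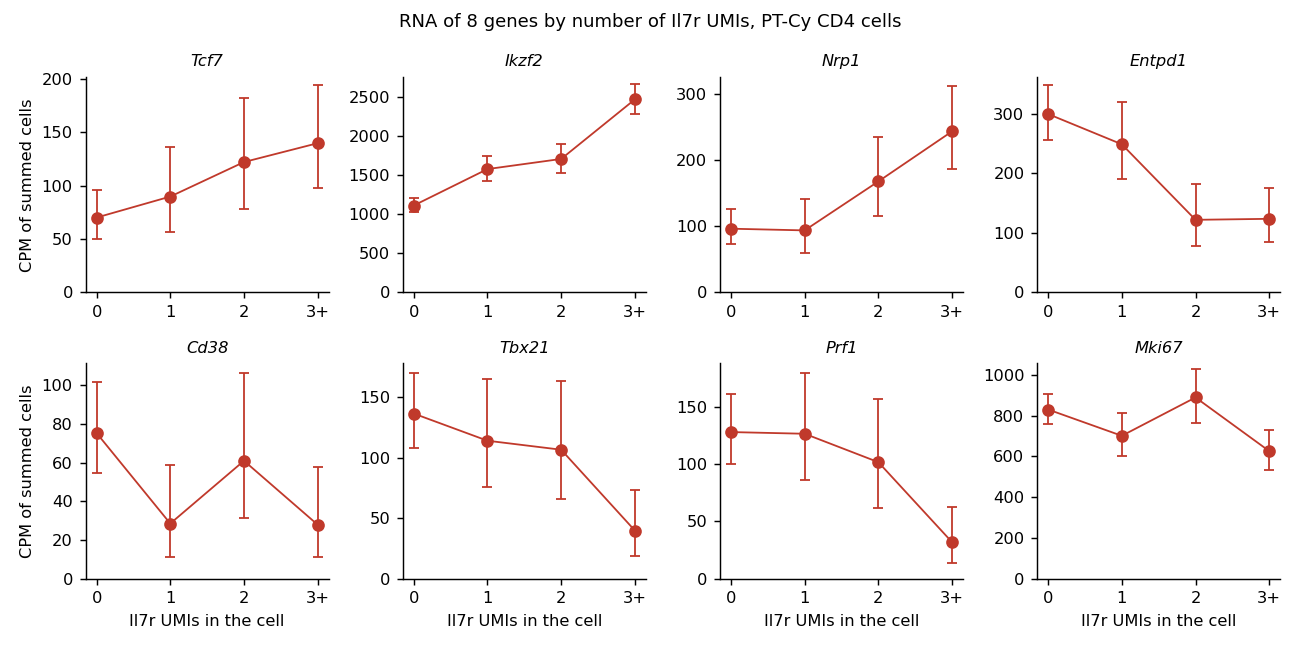
CPM of 8 genes summed over PT-Cy CD4 cells with 0, 1, 2 and 3 or more Il7r UMIs, with exact 95% Poisson intervals. Tcf7, Ikzf2 and Nrp1 are highest at 3 or more (140, 2469 and 243 CPM), Entpd1 is highest at 0 (300 CPM), and Prf1 and Tbx21 are lowest at 3 or more (31.9 and 39.9 CPM).

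RNA of other marrow cells was found on both sides. Of 9 red cell genes, 3 were measured, and they summed to 663 UMIs (0.0957%) in Il7r-positive and 360 UMIs (0.0631%) in Il7r-negative cells. One Il7r-positive cell held 98 of 386 Hbb-bs UMIs and 51 of 224 Hba-a1 UMIs, and without the 10% of cells richest in haemoglobin the ratios of these genes were -0.23 and -0.04. Of 12 neutrophil genes, 4 were measured, with 112 UMIs (0.0162%) in Il7r-positive and 148 (0.0259%) in Il7r-negative cells. For each of the 4 the cell with most UMIs was Il7r-negative, and without it the log2 ratio was 1.42 for S100a9, 0.70 for Ngp and 0.26 for both S100a8 and Camp, so the lower neutrophil sum in Il7r-positive cells rested on single cells. Markers of B cell progenitors, NK cells and megakaryocytes did not reach 50 UMIs for any gene. The part of RNA from other marrow cells in the results was not tested. Without the haemoglobin-rich cells, a step that concerns red cell RNA only, the 6 list medians named above kept their sign.

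The authors' deposited per-cell scores gave a related contrast. The RNA stem-like score averaged 0.0959 ± 0.123 in Il7r-positive and 0.0477 ± 0.110 in Il7r-negative cells (SD over cells, n = 144 and 140), a difference of 0.405 SD. The RNA exhaustion score averaged -0.0348 ± 0.0254 and -0.0209 ± 0.0311, a difference of -0.476 SD. The accessibility stem-like score averaged 0.0736 and 0.0752 (-0.015 SD), and the accessibility exhaustion score 0.0102 in Il7r-positive and 0.0244 in Il7r-negative cells (-0.377 SD). The sources at hand do not list the genes behind these scores, so an overlap with Il7r itself cannot be checked.

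Accessibility was compared on the same barcodes, and the division had used no ATAC count. The sides summed to 813637 and 725330 counts in peaks. Over the peaks within 2 kb of Il7r, Il7r-positive cells had 40 counts (49.2 CPM of the counts in peaks) and Il7r-negative cells 17 (23.4 CPM), a log2 ratio of 1.07 (interval 0.22 to 1.98). A count was found in 29 of 144 Il7r-positive cells (20.1%, interval 13.9 to 27.6%) and in 17 of 140 Il7r-negative cells (12.1%, interval 7.24 to 18.7%), and these intervals overlap. The peak over the promoter printed above, chr15:9529515-9530018, had 10 and 4 counts, and the peak just inside the gene, chr15:9527966-9528871, had 15 and 11.

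**Figure D4:**
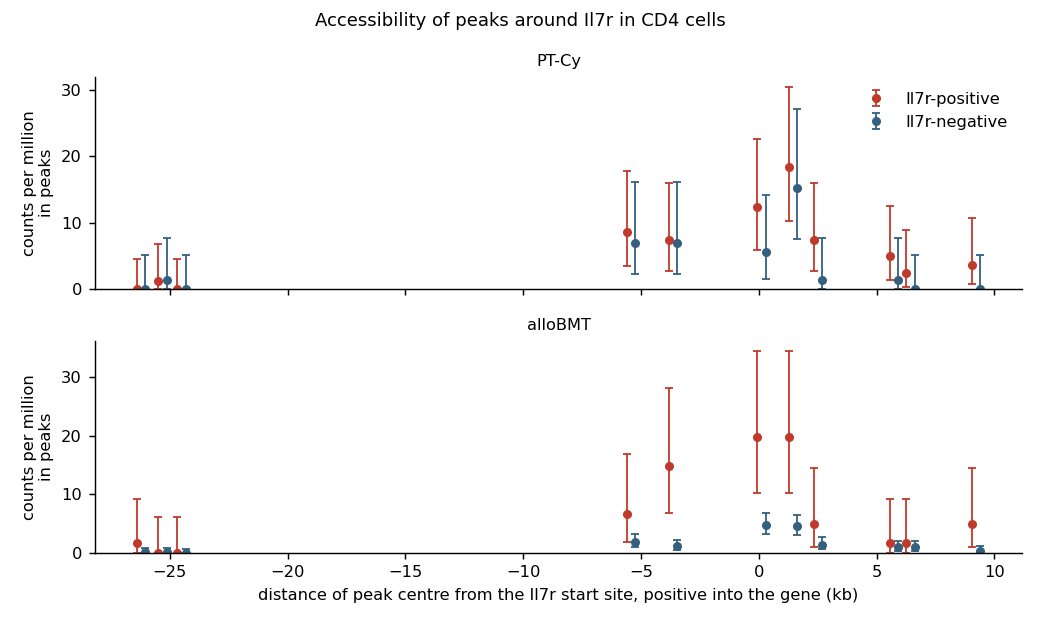
CPM of the counts in peaks for each peak within 30 kb of the Il7r start site, by distance from it, in PT-Cy (top) and alloBMT (bottom) CD4 cells, with exact 95% Poisson intervals. At the start site Il7r-positive cells have 12.3 and Il7r-negative cells 5.51 CPM in PT-Cy, with overlapping intervals, against 19.8 and 4.71 in alloBMT.

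Of the 9030 peaks that reached 50 counts, 444 (4.92%) were more open in Il7r-positive cells by 1.5-fold or more, and 365 (4.04%) were less open by that much. The 5 peaks furthest above 0 lay in or nearest to Tmem209, Mettl16, Strip2, Cenpa and Stx16, and the 5 furthest below in or nearest to Plec, Kidins220, Eomes, Hps6 and Ubl3. The peak in Eomes, chr9:118477367-118479521, had 17 counts in Il7r-positive and 39 in Il7r-negative cells (log2 ratio -1.36, interval -2.28 to -0.51). With counts summed over the peaks within 2 kb of each gene, 335 of 10458 genes (3.2%) were at least 1.5-fold more open and 295 (2.82%) less open.

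Effector genes were less open in Il7r-positive cells. Of 18 measured, 5 were at least 1.5-fold less open and none 1.5-fold more open, with a median log2 ratio of -0.41. Eomes had 36 counts in Il7r-positive and 72 in Il7r-negative cells (-1.17, interval -1.79 to -0.57). Ccl4, a chemokine gene, stood at -0.84 (-1.55 to -0.16), Gzmb at -0.77 (-1.60 to 0.03), Nkg7 at -0.75 (-1.38 to -0.13) and Gzmk at -0.64 (-1.23 to -0.05). Tbx21 did not differ detectably, with 87 and 76 counts (0.03, interval -0.43 to 0.49).

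Memory genes showed no such shift in accessibility. Of 24 measured, 1 was past 1.5-fold in each direction (Id3 at 0.79, Slamf6 at -0.72), and the median log2 ratio was -0.02. Tcf7 had 141 counts in Il7r-positive and 134 in Il7r-negative cells (-0.09, interval -0.44 to 0.26), and Lef1 had 212 and 206 (-0.12, interval -0.41 to 0.16). For Slamf6 RNA and accessibility lay on opposite sides of 0. The exhaustion median was -0.14, the regulatory T median -0.07 and the mitosis median 0.06. Nrp1 had 81 counts in Il7r-positive and 47 in Il7r-negative cells (0.62, interval 0.08 to 1.17), whereas Ikzf2 had 173 and 152 (0.02, interval -0.30 to 0.34). Capg, higher in RNA, had 64 and 75 counts (-0.39, interval -0.90 to 0.11). Depdc1b, lower in RNA, had 68 and 39 (0.64, interval 0.05 to 1.24).

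Across 4449 genes measured in both readouts, RNA and accessibility ratios correlated weakly (Pearson r = 0.077, Spearman rho = 0.072, across genes that share the same cells). Of 179 genes at least 1.5-fold higher in RNA, 59.2% had an accessibility ratio above 0, and of 159 genes lower in RNA, 40.3% did, against 52.1% of all genes.

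**Figure D5:**
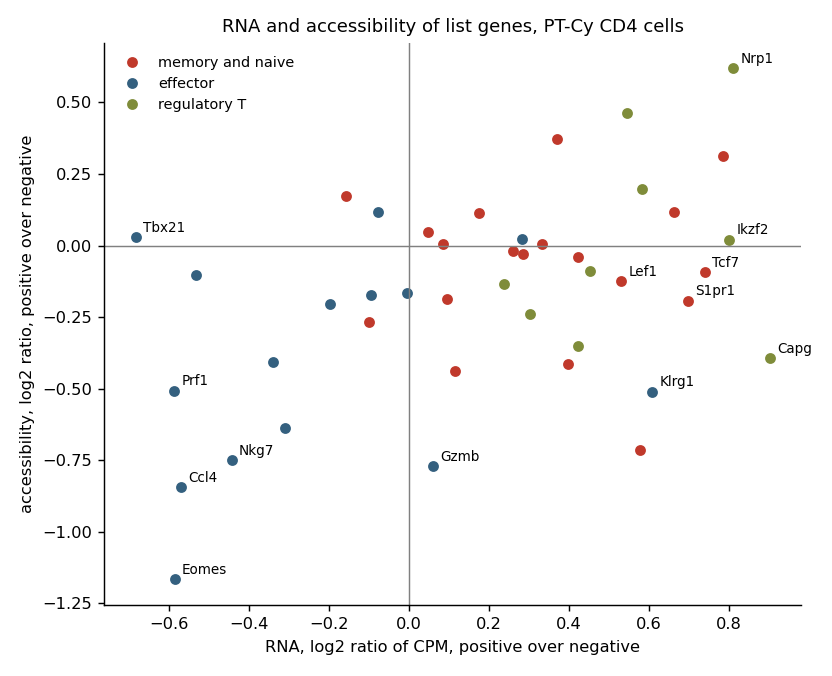
Each dot is 1 gene of the memory and naive, effector or regulatory T list measured in both readouts of PT-Cy CD4 cells, by its RNA log2 ratio (horizontal) and its accessibility log2 ratio (vertical), Il7r-positive over Il7r-negative. Eomes, Ccl4, Nkg7 and Prf1 are below 0 on both axes, whereas Tcf7 and Lef1 are above 0 in RNA and near 0 in accessibility.

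The alloBMT library, which the division of the PT-Cy cells had not used, was divided in the same way, without a test since it too is 1 library. Of the genes at least 1.5-fold higher in PT-Cy Il7r-positive cells, 197 were measured in alloBMT, and 62.4% of them had a ratio above 0 there, against 47.7% of the 4784 genes measured in both. Of the 173 lower genes, 71.1% had a ratio below 0 in alloBMT, against 52.3% of all. Outside cluster 4, which held 21 of the 75 Il7r-positive alloBMT cells, these shares were 59.8% and 66.9%.

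By list, the alloBMT memory and naive median was 0.38 (0.24 outside cluster 4), with 7 of 19 genes at least 1.5-fold higher (9.67% of all genes were) and 3 lower (13.7% were). Tcf7 stood at 1.03 and Satb1 at 1.83, where Satb1 had been at -0.16 in PT-Cy. The effector median was -0.32 and the exhaustion median -0.44. The mitosis median was -0.75 in alloBMT, with 15 of 24 genes at least 1.5-fold lower and none higher, against -0.15 in PT-Cy, and this difference between the libraries was not tested. Cell by cell the alloBMT medians lay the other way, but the means did not (0.129% of UMIs in Il7r-positive and 0.160% in Il7r-negative cells). Mitosis genes made up a median of 0.114% of UMIs in Il7r-positive and 0.0991% in Il7r-negative alloBMT cells, with 54.7% and 49.6% above the library median. There the share of cells with a proliferation marker after thinning was 45.3% of Il7r-positive and 45.8% of Il7r-negative cells. The regulatory T median was 0.93 in alloBMT and 0.36 outside cluster 4, with Il2ra at 4.66 and Nrp1 at 3.99 over all cells. At Il7r itself, accessibility was 52.7 CPM in Il7r-positive and 12.9 in Il7r-negative alloBMT cells, a count being found in 32.0% and 8.11% of cells. The effector accessibility median was -0.39.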

How the data were processed

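CD4 T cells of 2 libraries, PT-Cy and alloBMT, were analysed from deposited tables of RNA UMI counts per gene and cell and of ATAC counts per peak and cell, which the authors made with Cell Ranger ARC 1.0.1 and MACS2, per the submitters' processing notes. Those notes name the human build GRCh38, although the gene names are mouse. Peak positions matched GRCm38.p6, since 63.2% of 17491 RefSeq start sites lay in a peak, against 4.80 to 6.12% after shifts. The deposited per-cell table gave, per the file headers, the fraction of fragments in peaks, the percent of mitochondrial RNA, the TSS enrichment ratio, 4 signature score columns and clusters. Of its 58 columns 43 were not used. No source at hand states the authors' cell filters, and no doublet caller was run.

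UMIs were summed over the cells of each side and divided by the side's total without Il7r. Genes and peaks needed 50 counts over both sides. ATAC counts at a gene were summed over peaks within 2 kb of it. Both ends of a fragment can be counted, so intervals for ATAC may be too narrow. Ratios carry conditional binomial, levels Poisson and shares Clopper-Pearson 95% intervals. Thinning drew 2095 UMIs per cell without replacement, the 10th percentile of depth. The calculations were tested on simulated data. Scripts ran in Python 3.11.15 with scipy 1.17.1 for the intervals, pandas 2.3.3, numpy 2.4.6 and matplotlib 3.10.9, and edgeR 4.0.16 and DESeq2 1.42.0 in R 4.3.3 served for alternative scaling only. Named genes were the 12 with the highest lower and the 12 with the lowest upper bound (without Il7r, receptor segments and genes that are sex-linked, predicted, mitochondrial, ribosomal or for haemoglobin), the 4 most shifted members per list, and a hand-written set. Other list members named in the report were chosen after their values were seen. A few genes that met these rules are not reported here. Named peaks were the 5 with the highest lower and the 5 with the lowest upper bound. The members and lists were chosen with earlier results of these data known.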

Additional observations from a re-analysis of the deposited data

How the results depend on the processing

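No paired analysis was possible because each group was 1 library, so no replicate could be left out either. The 6 RNA list medians carried through the alternatives kept their direction (memory and naive 0.15 to 0.41, effector -0.64 to -0.05, mitosis -0.31 to -0.04, S phase -0.57 to -0.07, regulatory T 0.13 to 0.65), except exhaustion, which was 0.048 over 9 genes without the Cd8b1-bearing cells. The accessibility median of memory genes ranged from -0.072 to 0.015 and kept its sign in 8 of 9 alternatives. The other list medians were not carried through all alternatives. TMM and DESeq2 scaling moved all RNA ratios by 0.01 each and ATAC ratios by -0.01 each. Of 2777 alternative ratios of single genes, 148 had the other sign, 35 of them of genes whose main interval left out 0. Counts of genes at least 1.5-fold higher and lower followed the minimum and the number of cells: 3767 and 3102 with a minimum of 1 UMI, 655 and 589 with 20, 60 and 67 with 100, and 14 and 12 with 200. They were 78 and 54 in the shallowest and 118 and 99 in the middle depth tertile, and 15 and 10 in the 10 Il7r-positive and 9 Il7r-negative cells without a proliferation marker. The higher genes numbered 133 after thinning and 131 with the sides set again after thinning. Peaks more and less open numbered 196 and 183 with each cell counted once per peak, 1906 and 1830 with a minimum of 20 counts, and 47 and 28 with 100.

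Medians that moved past their interval were S phase at -0.13 after thinning, effector at -0.45 with the sides set again, and mitosis at -0.28 in the shallowest tertile. In the middle tertile effector stood at -0.64, S phase at -0.074 and regulatory T at 0.13. With at least 2 Il7r UMIs against none, effector stood at -0.54 and S phase at -0.57. Mitosis stood at -0.27 without the Cd8b1-bearing cells and at -0.31 without the 5% deepest cells. Named below are genes that changed sign although the interval of their main ratio left out 0. With the sides set again they were Tcf4 (-0.45), Tox (0.032) and Hbb-bs (-0.055). In the shallowest tertile they were Entpd1 (0.055), Tox (0.13), Il18rap (-0.47) and Maf (-0.49), and in the middle one Cd7 (0.91), Hbb-bs (-0.24), Tbx21 (0.28), Batf (0.65), Gata3 (-0.20), Hba-a1 (-0.082) and Nrp1 (-0.65). Without the Cd8b1-bearing cells they were Tox (0.11) and Rora (-0.018).

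In the cells without a proliferation marker they were March3 (-0.59), Ikzf2 (-2.08), Ttn (-0.35), Tcf7 (-0.23), Il18r1 (-0.23), Runx3 (0.036), Gata3 (-0.057), Samhd1 (-0.31), Hba-a1 (-0.23), Skap1 (-0.089), Fyn (0.67), Rora (-0.76), Maf (-0.23) and Nrp1 (-0.55). Chosen after seeing the data, leaving out the 10% of cells richest in haemoglobin gave Hbb-bs at -0.23 and Hba-a1 at -0.045, and leaving out the cell with most UMIs of the gene gave Tcf4 at -0.26, Ngp at 0.70 and Hdac9 at 0.78. The cause was not tested.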

Other observations

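Interferon-response genes lay slightly above 0 in Il7r-positive PT-Cy cells. Of a list of 24, 16 were measured, 12 had ratios above 0, none passed 1.5-fold in either direction, and the median log2 ratio was 0.14. Samhd1, an antiviral nuclease, had 440 CPM in Il7r-positive and 312 CPM in Il7r-negative cells (0.50, interval 0.23 to 0.77). Ifi27l2a, an interferon-induced gene, had 362 and 252 CPM (0.52, interval 0.22 to 0.83), and Xaf1, another interferon-induced gene, stood at -0.50 (-1.35 to 0.34).

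Of 20 integrin and trafficking genes, 18 were measured and 13 had ratios above 0. Among the 18 measured, 2 were at least 1.5-fold higher (4.37% of all genes were) and none lower (3.73% were). Itgb7, the beta 7 integrin of gut homing, had 406 CPM in Il7r-positive and 273 CPM in Il7r-negative cells (0.57, interval 0.28 to 0.86), and S1pr4, a sphingosine phosphate receptor, had 93.8 and 57.8 CPM (0.70, interval 0.07 to 1.35). Of 15 glycolysis genes, 12 were measured and none passed 1.5-fold, with a median of -0.05. Slc2a3, a glucose transporter, had 108 CPM in Il7r-positive and 161 CPM in Il7r-negative cells (-0.57, interval -1.03 to -0.12). None of 20 T cell receptor signalling genes passed 1.5-fold (median -0.11), nor did any of 8 measured p53 targets (median 0.03).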
